A study of Mus musculus with 6 samples.

Results

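Semaphorins are guidance ligands that act on plexin receptors, and the secreted class 3 semaphorins mostly reach plexins through the neuropilin co-receptors. The members described here were taken by gene symbol, as every symbol in the count tables that names a semaphorin of classes 3 to 7, a plexin or a neuropilin. They came to 31 of 55291 symbols: 20 semaphorins (7 of class 3 and 13 of the membrane classes 4 to 7), 9 plexins and 2 neuropilins. The family itself was chosen by values seen earlier in these libraries, the counts of Sema3a, Sema3b, Sema3d and Sema3e in Gpr125+ against Gpr125-negative cells. All values that compare those groups are therefore given as a description.

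The cells were CD49f-high mammary cells of 6-week-old, pubertal Adgra3-lz/+ mice, sorted after exclusion of cells positive for CD31, CD45 or Ter119. The methods list a biotinylated antibody to CD140a (the product of Pdgfra) beside the antibodies to these. Every mouse carried 1 copy of the reporter allele, in which β-galactosidase is fused to Gpr125 (the product of Adgra3, an adhesion G protein-coupled receptor), so a population without the reporter allele was not part of the comparison. Cells that turned over the β-galactosidase substrate FDG were collected as Gpr125+, either from the distal part of the gland, cut at the lymph node, which holds the terminal end buds (TEB-distal), or from the nipple-proximal part. Cells that did not were collected as Gpr125-negative, and the region they came from is not given in the labels. The authors describe Gpr125-negative cells from both regions. A difference of region between the Gpr125-negative libraries therefore cannot be told apart from one between replicates. Each of the 3 groups had 2 libraries, each made from both abdominal glands of 5 pooled mice by the series description. The methods name fewer mice per preparation and further mammary glands.

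The 6 libraries held 20134890 to 37296640 counts, so 3 counts, the floor used here, stood for 0.0804 to 0.149 CPM (counts per 1000000 counts of the library). The replicates of a group differed widely: the biological coefficient of variation of the fit was 0.967, and Pearson's r between replicates, across genes on the log2 CPM scale, was 0.733 between the Gpr125-negative pair, 0.791 between the TEB-distal and 0.933 between the nipple-proximal pair. Replicate 2 of the Gpr125-negative cells detected 17401 genes where the other 5 libraries detected 20384 to 21963. Adgra3 itself had 35.7 and 18.6 normalized CPM in the libraries labelled Gpr125-negative, 15.0 and 4.83 among TEB-distal and 19.2 and 12.3 among nipple-proximal libraries, so its mRNA was not higher in the Gpr125+ cells and the sort rests on reporter activity. Basal cytokeratins and smooth-muscle genes were present in every library (12 of 12 basal markers over 3 counts), and so were luminal markers (1448 to 3056 normalized CPM over 12 genes). The summed basal level was 3393 and 3554 normalized CPM among Gpr125-negative, 4017 and 23031 among TEB-distal and 9449 and 14952 among nipple-proximal libraries. Basal content thus moved with the groups as well. Of the 12 basal markers, 7 were higher in the TEB-distal pair than in both Gpr125-negative libraries, where 14.0% of all genes tested were. The 1 that was lower, beside 10.04% of all genes tested, was Trp63, at 7.33 and 6.47 against 58.1 and 8.40. In the nipple-proximal pair 10 were higher and 0 lower, beside 19.9% and 10.8% of all genes tested. The part of basal content in the differences from Gpr125-negative cells given here was not tested.

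Class 3 semaphorins are soluble and diffuse away from the cells that make them. Sema3a is the classic repellent that binds neuropilin-1 and signals through class A plexins, Sema3f prefers neuropilin-2, Sema3c can use both, and Sema3e is the exception that binds Plxnd1 without a neuropilin. The membrane classes act at short range or after shedding: Sema4d is the best known ligand of Plxnb1, Sema6a binds Plxna2 and Plxna4, Sema6d binds Plxna1, and Sema7a is held by a lipid anchor and binds Plxnc1 and integrins. In the growing mammary gland such cues are of interest because duct tips push through fat and stroma at this age.

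Of the 31 members, 28 had enough counts to be tested and 19 exceeded 3 counts in all 6 libraries. Sema5b was at 0 in every library, Sema4f had 18 counts in 1 TEB-distal library and 0 elsewhere, and Plxnb3 had 11 counts in 1 Gpr125-negative and 19 in 1 TEB-distal library and 0 elsewhere. The depth allowed up to the floor of 3 counts for each of those zeros. Exons of 7 members overlap those of another gene (Nrp1, Plxna1, Plxna4, Plxnb1, Plxnc1, Sema4a and Sema4c). Reads were counted without strand, so reads of such partners cannot be told apart where they overlap.

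**Figure D1:**
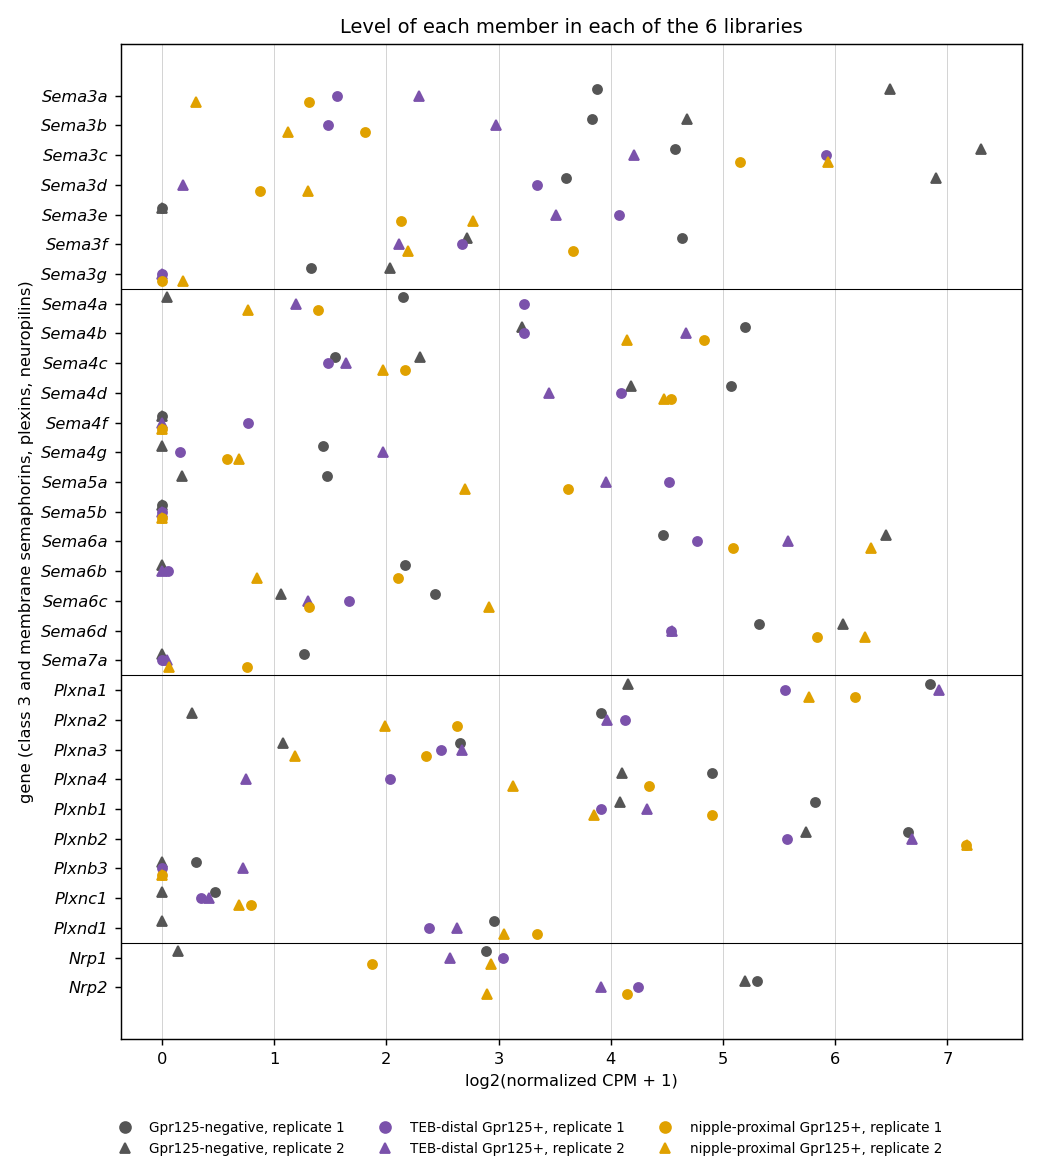
Level of each of the 31 members in each library, as log2(normalized CPM + 1), grouped as class 3 semaphorins, membrane semaphorins, plexins and neuropilins; colours are groups and circles and triangles are replicates 1 and 2. Sema3e sits at 0 in both Gpr125-negative libraries and above 0 in the 4 others, while Sema3a, Sema3b and Sema3d lie furthest to the right in libraries labelled Gpr125-negative.

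Of the 7 class 3 genes, 4 lie on the plus strand of chromosome 5 within 5347 kb of each other. In GRCm38 coordinates of GENCODE M21 these are Sema3d (12383385 to 12588948), Sema3a (13125414 to 13602565), Sema3e (14025276 to 14256689) and Sema3c (17574281 to 17730268). The gaps between neighbours are 536 kb, 423 kb and 3318 kb. Sema3e lies beside Sema3a, and these neighbours had opposite patterns in the libraries, so the promoters of the 4 genes are shown for comparison. Each sequence runs from 250 bases before to 50 bases after a RefSeq start (GRCm38.p6), 5′ to 3′ on the plus strand, with CG dinucleotides in capitals.
Sema3d, chr5:12382916-12383215: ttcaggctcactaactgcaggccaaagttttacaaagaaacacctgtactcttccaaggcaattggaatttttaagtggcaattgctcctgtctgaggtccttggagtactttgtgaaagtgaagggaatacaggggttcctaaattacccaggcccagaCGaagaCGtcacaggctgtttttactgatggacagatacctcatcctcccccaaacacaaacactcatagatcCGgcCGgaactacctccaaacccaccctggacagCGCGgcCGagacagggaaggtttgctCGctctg
Sema3a, chr5:13396534-13396833: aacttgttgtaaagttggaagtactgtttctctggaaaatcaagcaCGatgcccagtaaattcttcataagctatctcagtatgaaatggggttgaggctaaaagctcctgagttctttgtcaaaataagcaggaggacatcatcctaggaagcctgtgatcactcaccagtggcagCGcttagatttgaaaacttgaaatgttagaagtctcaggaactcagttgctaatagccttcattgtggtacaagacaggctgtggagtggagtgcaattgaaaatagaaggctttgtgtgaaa
Sema3e, chr5:14025026-14025325: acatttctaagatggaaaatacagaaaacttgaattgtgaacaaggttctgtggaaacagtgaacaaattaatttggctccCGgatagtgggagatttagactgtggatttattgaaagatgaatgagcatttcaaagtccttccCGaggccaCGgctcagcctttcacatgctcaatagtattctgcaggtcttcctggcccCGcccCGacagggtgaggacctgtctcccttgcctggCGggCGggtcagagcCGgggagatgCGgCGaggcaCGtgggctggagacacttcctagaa
Sema3c, chr5:17574566-17574865: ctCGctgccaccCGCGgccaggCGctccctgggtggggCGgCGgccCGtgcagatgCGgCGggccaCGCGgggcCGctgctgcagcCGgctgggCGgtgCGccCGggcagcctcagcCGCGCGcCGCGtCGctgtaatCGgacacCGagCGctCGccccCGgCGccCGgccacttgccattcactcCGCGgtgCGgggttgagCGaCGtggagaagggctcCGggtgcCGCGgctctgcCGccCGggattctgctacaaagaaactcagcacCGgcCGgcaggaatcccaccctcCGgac

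These windows differed mostly in CG content. The Sema3a window held 2 CG pairs and 41.3% G and C, the Sema3d window 8 and 49.7%, the Sema3e window 11 and 50.7%, and the Sema3c window 42 and 75.7%, where the median of 32851 mouse promoters of this length was 7 pairs. Over the 26 members with a RefSeq entry (37 promoters), the median was 15 pairs. The E-box CACGTG was found in the Sema3e window alone of the 4, as in 7.15% of all promoters, the GC box GGGCGG was in the Sema3e and Sema3c windows, as in 35.7% of all promoters, and TATAAA, in 13.6% of all promoters, was in none of the 4 (both strands searched). The Sema3a window (13396534 to 13396833) lies inside the longer gene of GENCODE, which starts at 13125414. Its CG content is therefore that of an internal start and not of the GENCODE start. A match is a run of letters and was not tested as a binding site.

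Sema3c was the most abundant class 3 gene per length over the 6 libraries, with a mean of 23.2 TPM (transcript level, counts per kilobase of exon scaled to the same total in each library). It had 22.7 and 157 normalized CPM among Gpr125-negative, 59.4 and 17.5 among TEB-distal and 34.4 and 60.3 among nipple-proximal libraries. The highest and the near-lowest values both came from the Gpr125-negative pair, so the groups overlapped. Sema3c made up 24.2% to 82.6% of the class 3 level in a library.

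Sema3e, the ligand of Plxnd1, was found in Gpr125+ cells. Neither Gpr125-negative library held a count of it (0 and 0), and there were 405 and 306 among TEB-distal and 69 and 124 among nipple-proximal libraries, or 15.8, 10.4, 3.39 and 5.84 normalized CPM in the Gpr125+ libraries. Against the floor of 3 counts per library, the mean level was at least 158-fold higher among TEB-distal and at least 55.5-fold higher in the nipple-proximal cells. In bulk RNA, fewer cells that express a gene and less of its RNA per cell cannot be told apart. Both TEB-distal libraries also lay above both nipple-proximal ones, by a log2 fold change of 1.51 ± 1.30 (SE, n = 2 libraries per group; edgeR adjusted p = 1).

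Sema3a, the axon repellent, had the reverse pattern. Its normalized CPM were 13.7 and 88.7 among Gpr125-negative, 1.95 and 3.88 among TEB-distal and 1.47 and 0.235 among nipple-proximal libraries (635 and 2618, 50 and 114, and 30 and 5 counts). The lowest Gpr125-negative value was above the highest Gpr125+ value, but the Gpr125-negative replicates were themselves far apart. Against Gpr125-negative cells, TEB-distal cells had a log2 fold change of -4.13 ± 1.33 (SE) and nipple-proximal cells one of -5.90 ± 1.46, and without replicate 2 of the Gpr125-negative cells it was -2.23 and -3.99.

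Sema3d, the neighbour of Sema3a on the other side, had 11.1 and 118 normalized CPM among Gpr125-negative, 9.12 and 0.136 among TEB-distal and 0.835 and 1.46 among nipple-proximal libraries. Replicate 1 of the TEB-distal cells came close to the lower Gpr125-negative library, while replicate 2 held 4 counts, near the floor, and the nipple-proximal libraries held 17 and 31. Its log2 fold change was -3.81 ± 1.80 (SE) among TEB-distal and -5.81 ± 1.98 in the nipple-proximal cells, and -1.27 and -3.27 without replicate 2 of the Gpr125-negative cells. With replicate 1 of the TEB-distal cells left out, the TEB-distal value was -8.89.

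Sema3b, on chromosome 9 (107597674 to 107609229, minus strand), had 13.3 and 24.6 normalized CPM among Gpr125-negative, 1.79 and 6.88 among TEB-distal and 2.5 and 1.18 among nipple-proximal libraries. Here the Gpr125-negative replicates were closer together than for Sema3a or Sema3d. The log2 fold change was -2.12 ± 1.22 (SE) among TEB-distal and -3.36 ± 1.29 in the nipple-proximal cells. The former was -1.48 without replicate 1 and -3.40 without replicate 2 of the TEB-distal cells. Without replicate 1 of the Gpr125-negative cells the values were -2.61 and -3.86, and without replicate 2 of those cells -1.62 and -2.84.

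Sema3g, on chromosome 14 (31217860 to 31230352, plus strand), was a rare transcript that was seen almost solely in Gpr125-negative cells. It had 70 and 91 counts there, 0 and 0 among TEB-distal and 0 and 3 among nipple-proximal libraries. The level was at least 20.9-fold lower in TEB-distal cells, and 29.4-fold lower in nipple-proximal cells, with a 95% exact counting interval of 9.87 to 144.

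Sema3f, the neuropilin-2 ligand, lies close to Sema3b (chromosome 9, 107681500 to 107710475, minus strand). It had 23.8 and 5.59 normalized CPM among Gpr125-negative, 5.38 and 3.34 among TEB-distal and 11.6 and 3.58 among nipple-proximal libraries. The TEB-distal libraries stood just below the lower Gpr125-negative library, with a log2 fold change of -1.75 ± 1.24 (SE) that was -0.50 without replicate 1 of the Gpr125-negative cells, and the nipple-proximal libraries overlapped it.

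As a class, 1 secreted member was higher and 5 were lower in both TEB-distal than in both Gpr125-negative libraries, where 14.0% and 10.04% of all genes tested were. In nipple-proximal cells these numbers were 1 and 4, where 19.9% and 10.8% of all genes tested were. Members of this class led to the choice of the family, so nothing is read from these counts. The median log2 difference over the 7 genes was -2.33 in TEB-distal cells (range over pairs of single libraries -3.69 to -1.80) and -3.34 in nipple-proximal cells (-3.90 to -2.37), where the median over all genes tested was 0.17 and 0.30. With the genes at 0 set to their bounds the class medians were the same. Those genes stay above or below the middle gene either way, so this is no check of the medians. Between TEB-distal and nipple-proximal cells the class median was 0.23, against -0.12 over all genes tested, and it was -0.80 without replicate 1 of the TEB-distal cells.

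Markers of endothelial cells were higher in the Gpr125-negative libraries, as Sema3a, Sema3b, Sema3d and Sema3g were, although the sort excluded CD31-positive cells. The summed level of 12 endothelial markers was 1383 and 849 normalized CPM among Gpr125-negative, 18.6 and 20.8 among TEB-distal and 229 and 24.8 among nipple-proximal libraries. In the Gpr125-negative libraries 12 and 11 of the 12 markers exceeded 3 counts and Vwf was at 0 in replicate 2. In the TEB-distal libraries 9 and 6 did, and Robo4 was at 0 in both. Both libraries of the TEB-distal cells lay below both Gpr125-negative libraries for 10 of the 12 markers, and both nipple-proximal libraries for 7. Of all genes tested, 10.04% and 10.8% did. Emcn, an endothelial surface sialomucin, had 258 and 450 normalized CPM among Gpr125-negative and 0.102 to 17.9 in the Gpr125+ libraries. Of the 6 lymphatic endothelial markers, 0 were higher and 4 were lower in TEB-distal than in Gpr125-negative cells (14.0% and 10.04% of all genes tested). In nipple-proximal cells 1 was higher and 3 were lower (19.9% and 10.8%). Prox1, the lymphatic fate regulator, had 11.6 and 23.7 among Gpr125-negative and 0 to 1.52 in the Gpr125+ libraries. Ccl21a went the other way in nipple-proximal libraries, at 43.3 and 9.89 against 0.968 and 2.03 among Gpr125-negative, with 0 and 0 among TEB-distal. The summed lymphatic level overlapped between groups (162 and 248, 363 and 109, and 182 and 80.0), with Reln the highest gene of that list in each Gpr125+ library. Among the Gpr125-negative libraries, replicate 1 had the higher endothelial sum and replicate 2 the higher Sema3a, Sema3b, Sema3d and Sema3g. The single markers did not share 1 order there. Egfl7 (474 and 88.4), Cldn5 (221 and 46.6), Cdh5, Tek, Erg, Esam, Vwf and Robo4 were higher in replicate 1. Emcn, Tie1 (32.8 and 61.2), Pecam1 (43.4 and 56.2), Kdr (0.323 and 13.8), Prox1 and the lymphatic sum were higher in replicate 2. The part of endothelial RNA in these results was not tested.

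**Figure D2:**
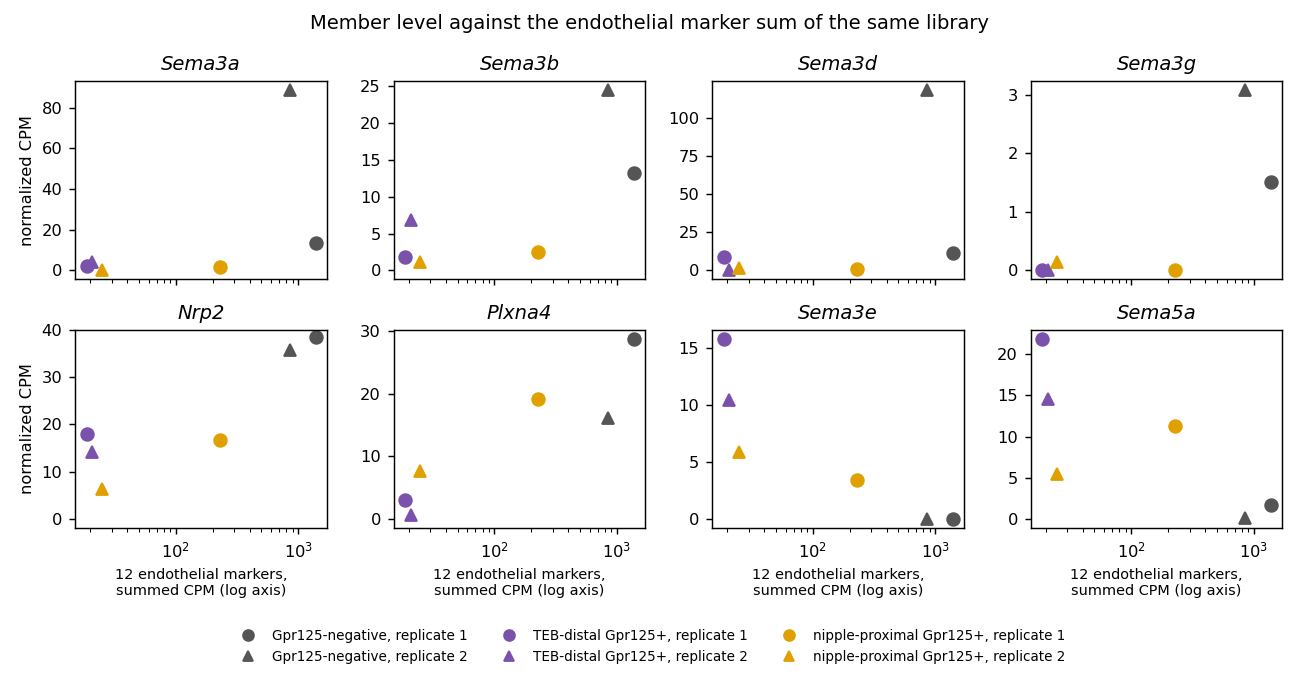
Normalized CPM of 8 members (vertical axes, linear, separate scale per gene) against the summed normalized CPM of 12 endothelial markers in the same library (horizontal axes, log scale); each point is a library. The Gpr125-negative libraries lie at the right, at 1383 and 849 normalized CPM of endothelial markers, with high Sema3a, Sema3b, Sema3d, Sema3g and Nrp2, and with Sema3e at 0.

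Of 4 further marker lists, the summed levels of fibroblast markers (10 genes, 28.6 to 175 normalized CPM over the 6 libraries) and pericyte markers (7 genes, 1.67 to 24.4) overlapped between Gpr125-negative and Gpr125+ cells. Between the regions the fibroblast sum lay apart, at 89.9 and 175 among TEB-distal and 69.4 and 54.6 among nipple-proximal libraries. By gene, 4 fibroblast markers were higher in TEB-distal than in Gpr125-negative cells and 5 were higher than in nipple-proximal cells, with 0 lower in either. The shares of all genes tested that were higher are 14.0% and 15.2%. The summed level of leukocyte markers (10 genes) was lower in libraries labelled Gpr125-negative, at 81.3 and 77.7 against 114 to 309 in the Gpr125+ libraries. Cd68 alone made up most of each sum, at 71.1 and 43.3 against 99.2 to 290. By gene, 4 were higher and 1 was lower in TEB-distal than in Gpr125-negative cells (14.0% and 10.04% of all genes tested). The numbers were the same in nipple-proximal cells (19.9% and 10.8%). The lower gene was Csf1r in TEB-distal cells, and it had 17.1 in replicate 2 of the Gpr125-negative cells. The summed level of adipocyte markers (6 genes) was higher in libraries labelled Gpr125-negative, at 2.22 and 4.44 against 0.141 to 1.12, with 4 of the 6 genes at 0 in each. It came mostly from Plin4 in replicate 1 (2.19, and 0 in replicate 2) and from Cfd in replicate 2 (4.34, and 0 in replicate 1). By gene, 0 of the 6 lay apart between Gpr125-negative cells and either Gpr125+ group. The part of these lists in the results was not tested. The share of mitochondrial counts was 0.301% and 2.82% in libraries labelled Gpr125-negative and 0.761% to 3.15% in the Gpr125+ libraries.

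Sema5a was the 1 membrane semaphorin that was higher in all 4 Gpr125+ libraries than in both Gpr125-negative ones. It is a transmembrane ligand with thrombospondin repeats, on chromosome 15 (32244810 to 32696341, plus strand). Replicates stood at 1.76 and 0.135 normalized CPM for Gpr125-negative cells, at 21.9 and 14.5 for TEB-distal cells and at 11.2 and 5.51 for the nipple-proximal ones, and the 3 groups did not overlap. The log2 fold change against Gpr125-negative cells was 4.24 ± 1.49 (SE) for TEB-distal cells and 3.13 ± 1.42 for the nipple-proximal ones, and without replicate 2 of the Gpr125-negative cells it was 3.36 and 2.25. The TEB-distal cells exceeded the nipple-proximal cells by 1.12 ± 1.32 on the log2 scale (edgeR adjusted p = 1).

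Sema6a, a transmembrane ligand of Plxna2 and Plxna4, was the most abundant membrane semaphorin per length, at a mean of 15.2 TPM. Its normalized CPM were 21.1 and 86.6 among Gpr125-negative, 26.3 and 46.7 among TEB-distal and 33.0 and 78.6 among nipple-proximal libraries, so all groups overlapped. Sema6d, next in level at 12.5 TPM, separated the regions instead. It had 22.1 and 22.4 normalized CPM among TEB-distal, 56.1 and 76.1 among nipple-proximal and 38.9 and 66.0 in libraries labelled Gpr125-negative, with the TEB-distal replicates nearly equal and below the other 4 libraries. The log2 fold change of TEB-distal against nipple-proximal cells was -1.57 ± 0.65 (SE; edgeR adjusted p = 1), and against Gpr125-negative cells it was -1.24 ± 0.65.

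Sema6b and Sema7a were scarce and nearly absent from TEB-distal cells. Sema6b had 1 and 0 counts there, 67 and 17 among nipple-proximal and 162 and 0 in libraries labelled Gpr125-negative, a ratio of 111 between nipple-proximal and TEB-distal cells with a 95% exact counting interval of 19.4 to 4439. Sema7a, the lipid-anchored member, had 0 and 1 counts among TEB-distal, 14 and 1 among nipple-proximal and 65 and 0 in libraries labelled Gpr125-negative. Its nipple-proximal ratio of 19.8 (3.05 to 835) rests on 14 counts in 1 library.

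In the other membrane semaphorins the groups overlapped or differed by less than 2-fold. Sema4b (8.23 to 35.7 normalized CPM) and Sema4d (9.91 to 32.6) were the most abundant of class 4, and Sema4d was lower in both TEB-distal libraries than in the other 4, with 16.1 and 9.91 against 17.2 to 32.6. Sema4c (1.79 to 3.93), Sema6c (1.08 to 6.54), Sema4a (0.0339 to 8.38) and Sema4g (0 to 2.93) were low throughout. Sema4a had a log2 fold change of 2.05 ± 2.14 (SE) for TEB-distal against nipple-proximal cells, but its libraries overlapped, and it was 0.21 without replicate 1 of the TEB-distal cells. Over the 13 membrane members, 1 was higher and 2 were lower in both TEB-distal than in both Gpr125-negative libraries (14.0% and 10.04% of all genes tested), and 1 was higher and 0 were lower in the nipple-proximal cells (19.9% and 10.8%). The median log2 difference was -0.29 and 0.32, and it changed sign with the Gpr125-negative library used: 0.32 and 1.37 without replicate 1, and -0.80 and -0.49 without replicate 2. Against nipple-proximal cells, 1 membrane member was higher and 5 were lower in TEB-distal cells (15.2% and 18.3% of all genes tested), with a median of -0.58.

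**Figure D3:**
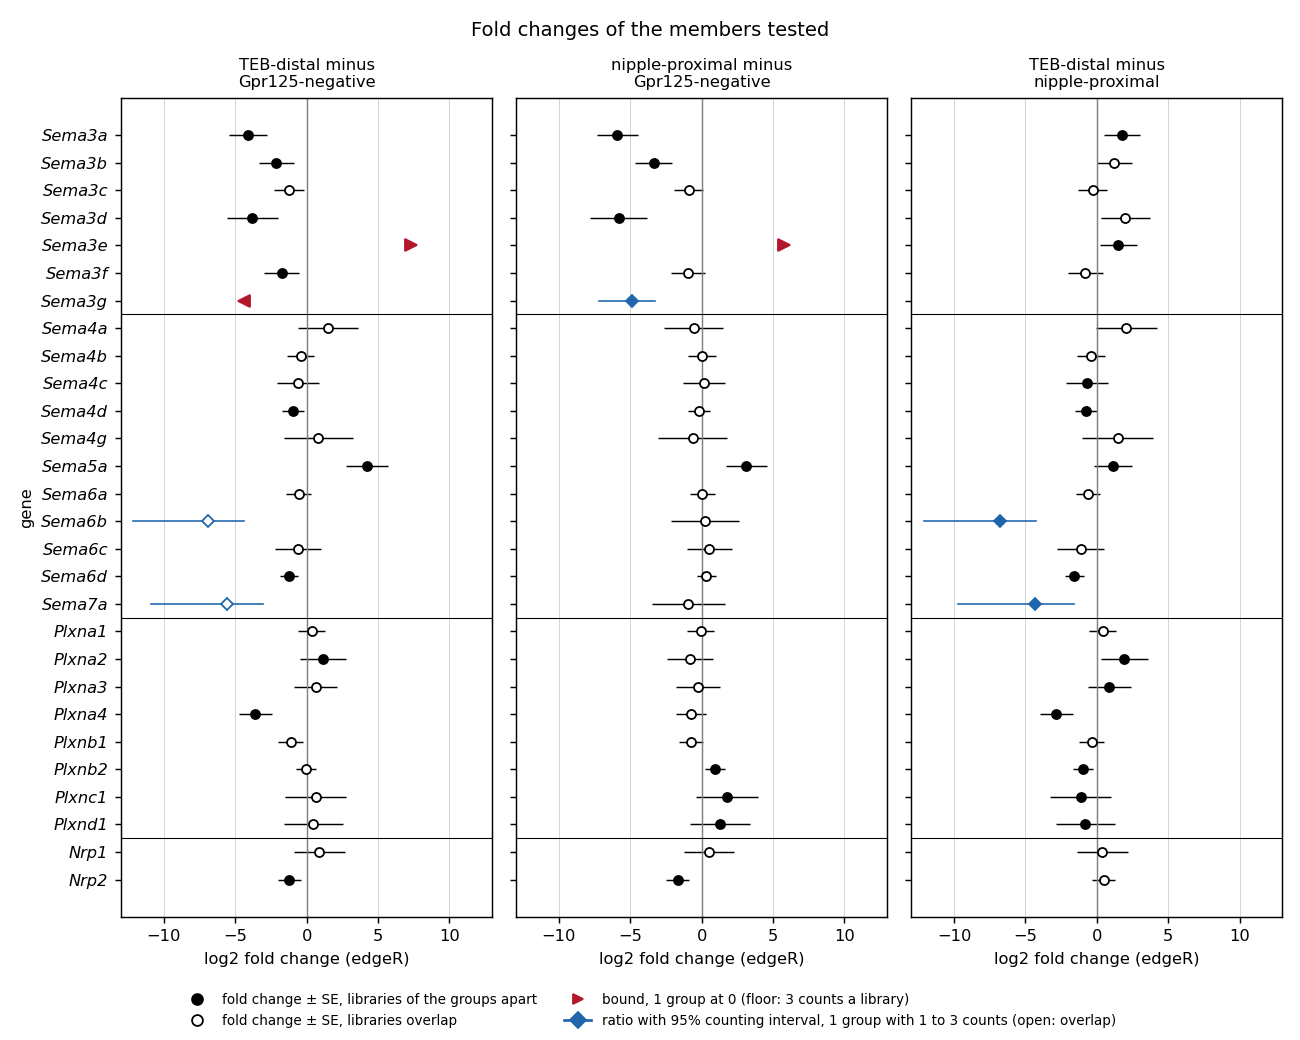
Log2 fold changes of the 28 members tested in the 3 comparisons, with bars of 1 SE (circles), bounds where a group was at 0 (triangles) and ratios with 95% counting intervals where a group had 1 to 3 counts (diamonds); filled symbols mark genes whose 2 groups of libraries do not overlap. Sema3g is left out of the right panel, where both groups are at or under the floor. Most secreted members lie left of 0 in the panels against Gpr125-negative cells, Sema3e and Sema5a lie right of 0 in every panel, and Plxna4 lies left of 0 by 3.58 in the left and 2.84 in the right panel.

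Plexins are the receptors that turn semaphorin binding into loss of integrin adhesion and collapse of the cytoskeleton. Plxnb2 and Plxna1 carried most of their RNA, 71.1% to 87.9% of the plexin level (TPM) in each library. Plxnb2, a receptor of class 4 semaphorins, was the highest at a mean of 35.7 TPM. It had 142 and 143 normalized CPM in the nipple-proximal, 46.5 and 102 among TEB-distal and 99.4 and 52.5 in libraries labelled Gpr125-negative. The nipple-proximal replicates were nearly equal and above the other 4 libraries, with log2 fold changes of 0.91 ± 0.70 (SE) over Gpr125-negative cells and -0.94 ± 0.70 for TEB-distal against nipple-proximal cells (edgeR adjusted p = 1; -0.42 without replicate 1 of the TEB-distal cells). Plxna1, the receptor of Sema6d, ranged from 16.8 to 120.2 normalized CPM. The Gpr125-negative pair, at 113.8 and 16.8, spanned every other library but replicate 2 of the TEB-distal cells.

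Plxna4, a class A plexin that serves Sema3a and Sema6a, was the plexin with the largest difference. It had 28.9 and 16.1 normalized CPM among Gpr125-negative, 3.08 and 0.681 among TEB-distal and 19.2 and 7.72 among nipple-proximal libraries. The TEB-distal libraries lay below the other 4, and the nipple-proximal and Gpr125-negative libraries overlapped. The log2 fold change of TEB-distal cells was -3.58 ± 1.19 (SE) against Gpr125-negative and -2.84 ± 1.15 against nipple-proximal cells, the latter at an edgeR adjusted p of 1. Exons of the opposite-strand gene Plxna4os3 overlap 110 bases of Plxna4, and the counts do not separate them.

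Plxna2, the other Sema6a receptor, went the opposite way between regions. It had 16.5 and 14.6 normalized CPM among TEB-distal and 5.21 and 2.97 among nipple-proximal libraries, a log2 fold change of 1.93 ± 1.65 (SE; edgeR adjusted p = 1). The Gpr125-negative libraries were far apart, at 14.1, just below the TEB-distal pair, and 0.203, below the nipple-proximal pair, so the log2 fold change of 1.12 ± 1.61 for TEB-distal over Gpr125-negative cells was 0.14 without replicate 2 and 6.09 without replicate 1. Plxna3 ranged from 1.12 to 5.38 and Plxnb1 from 13.4 to 55.5 normalized CPM, without a gap between Gpr125-negative and Gpr125+ cells.

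Plxnd1, the receptor of Sema3e, was found in the 4 Gpr125+ libraries and in 1 of the Gpr125-negative libraries. Its normalized CPM were 4.21 and 5.17 among TEB-distal, 9.13 and 7.30 among nipple-proximal and 6.78 and 0 in libraries labelled Gpr125-negative. The nipple-proximal libraries were the highest, by a log2 fold change of 1.27 ± 2.08 (SE) over Gpr125-negative cells that was 0.28 without replicate 2 of those cells. Sema3e had the other order, higher in the TEB-distal libraries. Plxnc1, the receptor of Sema7a, was near the limit of detection, with 15 and 13 counts in the nipple-proximal, 7 and 10 among TEB-distal and 18 and 0 in libraries labelled Gpr125-negative. Its log2 fold change was 1.76 ± 2.17 for nipple-proximal over Gpr125-negative cells (0.80 without replicate 2 of the latter) and -1.12 ± 2.14 for TEB-distal against nipple-proximal cells.

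The neuropilins bind class 3 semaphorins and VEGF family growth factors. Nrp2 was the more abundant, at a mean of 5.45 TPM against 1.40 for Nrp1. It had 38.4 and 35.7 normalized CPM among Gpr125-negative, 17.9 and 14.1 among TEB-distal and 16.7 and 6.45 among nipple-proximal libraries. The Gpr125-negative replicates were close together, and all 4 Gpr125+ libraries lay below them, by log2 fold changes of -1.21 ± 0.80 (SE) and -1.68 ± 0.81. The endothelial markers given above were also higher in the Gpr125-negative libraries, and their part in the Nrp2 difference was not tested. Nrp1 had 6.41 and 0.102 normalized CPM among Gpr125-negative, 7.21 and 4.94 among TEB-distal and 2.65 and 6.64 among nipple-proximal libraries, and its groups overlapped.

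The receptors as a set depended on which Gpr125-negative library was read. All 11 plexins and neuropilins were higher in replicate 1 than in replicate 2 of the Gpr125-negative cells, by a median log2 difference of 2.18, where the median over all genes tested was 0.39. Of the 7 class 3 semaphorins, 1 was higher in replicate 1. The median absolute log2 difference between replicates over the 31 members was 2.11 for the Gpr125-negative, 0.64 for the TEB-distal and 0.81 for the nipple-proximal pair, against 1.65, 1.20 and 0.59 over all genes tested. The plexin median against Gpr125-negative cells was 0.76 for TEB-distal cells and 0.50 for the nipple-proximal ones, and it was -0.53 and -1.18 without replicate 2 of the Gpr125-negative cells. With both libraries of a group on the same side, 1 of the 9 plexins was higher and 1 lower in TEB-distal than in Gpr125-negative cells, where 14.0% and 10.04% of all genes tested were. In nipple-proximal cells 3 were higher and 0 lower than in Gpr125-negative cells, beside 19.9% and 10.8% of all genes tested. Between the regions, 2 were higher and 4 lower in TEB-distal cells, beside 15.2% and 18.3% of all genes tested.

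Ligands and receptors were then summed per length. The 31 members together made up 248 and 232 TPM among Gpr125-negative, 138 and 136 among TEB-distal and 180 and 156 among nipple-proximal libraries. This total was lowest in TEB-distal and highest in Gpr125-negative libraries without overlap. It includes the class 3 genes whose counts led to the choice of the family, so nothing is read from it against Gpr125-negative cells. Class 3 semaphorins summed to 44.7 and 135 TPM among Gpr125-negative, 41.5 and 15.1 among TEB-distal and 23.5 and 25.1 among nipple-proximal libraries. Membrane semaphorins summed to 68.1 and 57.3, 40.4 and 38.3, and 57.0 and 59.8 TPM, and the TEB-distal pair lay below all 4 others. Plexins summed to 122 and 31.9, 49.1 and 78.3, and 94.5 and 68.3 TPM, with the highest and the lowest library both from Gpr125-negative cells. Neuropilins summed to 13.3 and 8.32, 7.40 and 4.30, and 4.84 and 3.01 TPM.

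Secreted members made up 39.6% and 70.2% of the semaphorin level (TPM) among Gpr125-negative, 50.7% and 28.2% among TEB-distal and 29.1% and 29.6% among nipple-proximal libraries (54.9% ± 21.6, 39.4% ± 15.9 and 29.4% ± 0.302; mean ± SD, n = 2). The nipple-proximal libraries agreed closely and the ranges of the other groups were wide, so the groups overlapped apart from nipple-proximal below Gpr125-negative. The ratio of ligand to receptor TPM was 0.837 and 4.77 among Gpr125-negative, 1.45 and 0.647 among TEB-distal and 0.810 and 1.19 among nipple-proximal libraries. Exact permutation tests were not informative here, since 2 against 2 libraries cannot give a p below 0.333.

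**Figure D4:**
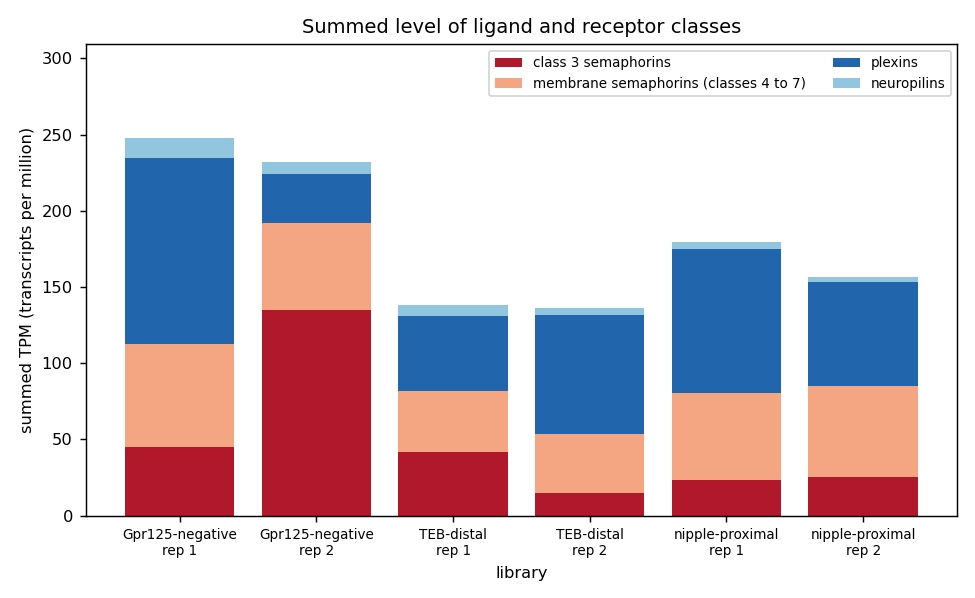
Summed TPM of class 3 semaphorins, membrane semaphorins, plexins and neuropilins in each of the 6 libraries, stacked from 0. The full bars reach 248 and 232 TPM for Gpr125-negative cells, 138 and 136 for TEB-distal cells and 180 and 156 for the nipple-proximal ones, and the Gpr125-negative bars differ in makeup, with 44.7 and 135 TPM of class 3 semaphorins and 122 and 31.9 TPM of plexins.

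Across all genes, TEB-distal and Gpr125-negative cells were compared with edgeR's quasi-likelihood test at an FDR of 0.1 and a change of at least 2-fold. It called 0 of the 28 members tested, as it called 0% of the 17268 genes tested, and the smallest adjusted p of a member was 0.803. At an unadjusted p under 0.05 it gave 5 members, 2 of them higher, and 6.05% of all genes tested. DESeq2 on the 4 libraries called 4 members, against 4.33% of the genes it tested: Sema3e and Sema5a were higher, and Sema3a and Sema3g were lower. Both TEB-distal libraries lay above both Gpr125-negative libraries for 3 of the 31 members, where 14.0% of all genes tested did, and below for 9, where 10.04% of all genes tested did.

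Comparing nipple-proximal with Gpr125-negative cells, edgeR again called 0 members and 0% of all genes tested, with 4 members, 1 of them higher, and 3.55% of all genes tested at an unadjusted p under 0.05. DESeq2 on the 4 libraries called Sema3e as higher and Sema3a, Sema3b and Sema3d as lower, where 2.00% of the genes it tested were called. Both nipple-proximal libraries lay above both Gpr125-negative libraries for 5 members (19.9% of all genes tested) and below for 5 (10.8%). Since class 3 members led to the choice of the family, nothing is read from the counts of either comparison with Gpr125-negative cells.

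Between TEB-distal and nipple-proximal cells, which compares the regions within Gpr125+ cells, edgeR called 0 members and 0% of all genes tested. At an unadjusted p under 0.05 it gave 2 members, Sema6d and Plxna4, both lower in TEB-distal cells, and 2.21% of all genes tested. DESeq2 on the 4 libraries also called 0 members, where it called 2.26% of the genes it tested. The libraries of the groups lay apart for 5 members that were higher in TEB-distal cells (15.2% of all genes tested) and 9 that were lower (18.3%). The former were Sema3a, Sema3e, Sema5a, Plxna2 and Plxna3, and the latter Sema4c, Sema4d, Sema6b, Sema6d, Sema7a, Plxna4, Plxnb2, Plxnc1 and Plxnd1. As shares of the 31 members, the former is near and the latter above that of all genes tested, and neither tool called a member.

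Genes that work with semaphorins were read from 4 lists of co-receptors (18 genes), VEGF family ligands of neuropilins (5), cytoplasmic effectors (37) and processing proteases (6). EdgeR called 0 genes of any list in any comparison, as it called 0% of all genes tested. DESeq2 on the 4 libraries called 3, Itga1 and Cspg4 in TEB-distal against Gpr125-negative cells and Rnd1 between the regions. It called 4.33% and 2.26% of all the genes it tested in these comparisons. Among the co-receptors, the integrin subunit gene Itga1 had 43 and 66 counts among Gpr125-negative, 578 and 624 among TEB-distal and 166 and 267 among nipple-proximal libraries. The fold change on the log2 scale was 3.79 ± 1.08 (SE) in TEB-distal cells (edgeR adjusted p = 0.803, DESeq2 adjusted p = 0.0650) and 2.71 ± 1.03 in nipple-proximal cells (edgeR adjusted p = 1, DESeq2 adjusted p = 0.382). Integrins with this subunit bind collagen, and Sema7a can signal through them.

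Cspg4, a proteoglycan that is also on the pericyte list, had 208 and 9 counts among Gpr125-negative, 0 and 0 among TEB-distal and 0 and 50 among nipple-proximal libraries, at least 21.8-fold lower in TEB-distal cells (edgeR adjusted p = 0.821, DESeq2 adjusted p = 0.0477). Flt4, a VEGF receptor of lymphatic endothelium that partners with neuropilin-2, had 655 and 545 counts among Gpr125-negative and 21 to 78 in the Gpr125+ libraries, a log2 fold change of -3.40 ± 1.38 (SE) in TEB-distal cells (edgeR adjusted p = 0.811, DESeq2 adjusted p = 0.119). It is on the lymphatic list as well. Sdc3, a heparan sulfate proteoglycan, had 18.5 and 14.1 normalized CPM among Gpr125-negative and 68.9 and 69.3 among nipple-proximal libraries (log2 fold change 2.08 ± 0.89, edgeR adjusted p = 1), with the TEB-distal libraries at 11.5 and 65.6. Over the co-receptors, of which 16 were tested, 1 gene was higher and 2 were lower at an unadjusted edgeR p under 0.05 in TEB-distal against Gpr125-negative cells. These numbers were 2 and 0 in nipple-proximal against Gpr125-negative cells, and 0 and 0 between the regions. In either direction, 6.05%, 3.55% and 2.21% of all genes tested had such a p.

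Among the effectors, Mical3, of a family of oxidases that take actin filaments apart downstream of plexins, had 160 and 39.4 normalized CPM among Gpr125-negative and 10.1 to 19.4 in the Gpr125+ libraries. The log2 fold change was -2.41 ± 0.84 (SE) in TEB-distal cells and -2.93 ± 0.86 in nipple-proximal cells (edgeR adjusted p = 0.803 and 1), and without replicate 1 of the Gpr125-negative cells it was -1.20 and -1.72. Rnd1, a small GTPase that binds plexins and loosens adhesion, had 3.82 and 5.62 normalized CPM among TEB-distal, 39.0 and 21.5 among nipple-proximal and 10.4 and 37.7 in libraries labelled Gpr125-negative. It was lower in TEB-distal than in nipple-proximal cells by a log2 fold change of -2.68 ± 0.95 (edgeR adjusted p = 1, DESeq2 adjusted p = 0.0375) and than in Gpr125-negative cells by -2.35 ± 0.94 (edgeR adjusted p = 0.807, DESeq2 adjusted p = 0.50), the latter -1.14 without replicate 2 of the Gpr125-negative cells. Of the 37 effectors, 34 were tested. At an unadjusted edgeR p under 0.05, 0 genes were higher and 2 were lower in TEB-distal cells, 0 and 1 in nipple-proximal cells, and 0 and 1 between the regions. The shares of all genes tested, in either direction, were 6.05%, 3.55% and 2.21%. The effector medians were 0.21, 0.48 and -0.16, beside 0.17, 0.30 and -0.12 over all genes tested. The VEGF ligands (medians 0.00442, 0.86 and -0.85) and the proteases (0.0243, 0.21 and -0.26) had 0 genes at an unadjusted p under 0.05 in any comparison.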

How the data were processed

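RNA of sorted cells was amplified with the low-input SMART-Seq HT kit and sequenced. The authors aligned reads to mm10 with STAR (2.7.3 in the submitters' processing notes, another version in the methods) and counted them per gene with HTSeq without strand; the annotation release is not given in the sources used here. The deposited files hold raw read counts per gene symbol, with no molecular identifiers, so intervals and floors cover counting error only.

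Counts were fitted in R 4.3.3 with edgeR 4.0.16 (TMM, filterByExpr by group, robust quasi-likelihood test, 3 groups in 1 model, 17268 genes, Benjamini-Hochberg adjustment over all of them), and a call needed an FDR under 0.1 and a 2-fold change, the thresholds of the methods. DESeq2 1.42.0 was the alternative. Normalized CPM are counts scaled by the TMM-adjusted library size, log2 CPM used a prior count of 2, and TPM used exon lengths of GENCODE M21 (53292 of 55291 symbols matched, 96.4%). The fitting script was tested on simulated data. Groups came from the sample labels. Replicates are samples of separate pools, as far as the labels say, and p-values measure the spread between them. No pair of libraries held the same counts.

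The members, gene lists and marker lists were chosen with earlier results of these data known. A member is given in every library if the libraries of 2 groups lie apart with a log2 fold change of at least 1, or if it is the highest of its role per length; of each pathway list, up to 3 genes per comparison with an unadjusted p under 0.05 and no overlap are named. Folds against a group at 0 are bounds against 3 counts per library. Alternatives were the normalization, the filter, the prior count, DESeq2, a replicate block and leaving out each library. The result of 1 further marker list, whose summed level also lay apart between Gpr125-negative and Gpr125+ libraries, is not reported here.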

Additional observations from a re-analysis of the deposited data

How the results depend on the processing

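With edgeR 0 members were called in each comparison. For TEB-distal against Gpr125-negative cells, DESeq2 called 5 members on all 6 and 4 on the 4 libraries compared (5.43% and 4.33% of all genes tested), edgeR without a filter beyond 1 count called 1 (Sema3e; 0.468%), and leaving out a library gave 0 to 5. For nipple-proximal against Gpr125-negative cells these numbers were 4, 4 (1.98% and 2.00%), 3 (Sema3a, Sema3d and Sema3e; 0.198%) and 0 to 3. The highest values, 5 and 3, came without replicate 1 of the Gpr125-negative cells, where 3.85% and 1.73% of all genes tested were called, and included Sema3a and Sema3e in both. In the former comparison, 1 came without replicate 1 of the nipple-proximal cells (0.219%). The cause was not tested.

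Leaving out a library moved the membrane semaphorin median from -0.80 to 0.32 (TEB-distal against Gpr125-negative), from -0.49 to 1.37 (nipple-proximal against Gpr125-negative) and from -0.81 to 0.00 (between the regions), and the class 3 median between the regions from -0.80 to 0.48. Leaving out each Gpr125-negative library in turn was an alternative chosen after seeing the data: members above both were 4 to 12 (31.3% and 38.7% of all genes tested) and members below 12 to 16 (34.1% and 27.6%) in TEB-distal cells, and 9 to 16 (41.4% and 50.1%) and 8 to 18 (40.5% and 31.4%) in nipple-proximal cells, each percentage without replicate 2 and then without replicate 1. The class 3 share of nipple-proximal cells was 25.5% by counts in place of 29.4%. Of the 84 folds of members tested, 44 turned sign when 1 library was left out. These were 44 of the 55 folds with overlapping libraries or under 2-fold and 0 of the 29 chosen for lying apart by at least 2-fold, a choice that bears on that number. Of the values of those 29 under all alternatives, 372 kept direction and call and 29 became called.

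Replicate numbers are shared between groups, but the labels do not say that they mark a shared batch. Deviations of same-numbered libraries correlated at -0.0347 (Gpr125-negative and TEB-distal), 0.194 (Gpr125-negative and nipple-proximal) and -0.00495 (TEB-distal and nipple-proximal). With the replicate block, 0 members were called in each comparison. Another scaling moved the median of all genes from 0.30 to 0.11 for nipple-proximal less Gpr125-negative cells and from -0.12 to 0.03 for TEB-distal less nipple-proximal cells. Depth limits members near the floor, such as Sema7a and Plxnc1, whose folds rest on few counts.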
